A study of Mus musculus with 6 samples.

Results

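Aminoacyl-tRNA synthetases attach each amino acid to its tRNA, the step that supplies the ribosome with charged tRNA. Their genes were picked by name from the protein-coding rows of the deposited table: 20 genes for the cytosolic enzymes and 17 for the mitochondrial enzymes, 37 of 55385 rows in all. The rule reads gene names and class only, and all 37 had a mean of at least 1 FPKM (fragments scaled to transcript length and to the mapped total of the library) over the 6 libraries. The libraries came from Neuro2A, a mouse neuroblastoma line labelled as neuroblast, transfected at 100 nM with si-circCpsf6, a small interfering RNA against the circular RNA circCpsf6 (n = 3), or with the comparison RNA si-NC (n = 3). Both groups were the same line and received the same lipid reagent, and no other allele, agent or time is given in the labels. The labels do not say that replicates were separate cultures, so a p-value here reflects how much these libraries scatter, and that scatter may be technical.

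The nuclear genome encodes both sets of enzymes. The cytosolic set charges tRNA for the bulk of translation, and several of its members sit together in the multisynthetase complex. The mitochondrial set, with names ending in 2, charges the tRNAs that translate the few respiratory chain subunits encoded in mitochondrial DNA. Gars and Kars were filed with the cytosolic set by their names, although each supplies both compartments. Mitochondria lack a glutaminyl-tRNA synthetase and make that charged tRNA with an amidotransferase. Uncharged tRNA activates the kinase GCN2, and the transcription factor ATF4 that follows is known to raise many cytosolic synthetase genes.

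Of 12 markers fixed for sympathoadrenal neuroblasts, 11 had a mean of at least 1 FPKM. Their summed level was 548.16 to 614.25 FPKM in si-NC and 382.02 to 458.39 FPKM in si-circCpsf6, with no overlap. Among them Chga, a granule protein gene, fell from 234 ± 13 to 110 ± 22.5 FPKM (SD, n = 3; limma adjusted p = 0.0335). Of the 11, 5 had a fitted log2 fold change above 0, and Mycn, a driver gene of neuroblastoma, read 12.7 ± 6 and 22.3 ± 2.56 FPKM with the groups apart (limma adjusted p = 0.18). Fibroblast, microglia, astrocyte and endothelial markers summed to at most 7.42 FPKM in any library. The part of these markers in the results below was not tested. The files give no counts, so the depth of the libraries is unknown, and the level of the circle itself was not analysed here. For the cytosolic synthetases, si-circCpsf6 replicate 1 had the lowest value of its group in 17 of the 20 genes (85.0%). That share was 43.8% among the 12974 genes whose mean reached 1 FPKM. For the mitochondrial genes this library was the lowest of its group in 9 of 17 (52.9%). It also lay apart over all 12974 genes. On their first principal component (38.1% of the variance) it lay at 37, against 14.2 and 16.5 for si-circCpsf6 replicates 2 and 3. On the second (22.9%) replicates 1 to 3 lay at 26.5, -32.3 and -9.78.

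The cytosolic genes were read at higher levels than the mitochondrial genes in every library. Gars, for glycyl-tRNA synthetase, had the highest mean level over the 6 libraries, 193 FPKM, and was the top cytosolic gene in each of them. It supplied 17.6% to 20.1% of the summed cytosolic FPKM in si-NC and 20.1% to 23.0% in si-circCpsf6. Qars, for glutaminyl-tRNA synthetase, was the lowest cytosolic gene in each library, with a mean of 8.52 FPKM. The mitochondrial genes ran from Pars2, for prolyl-tRNA synthetase, at a mean of 1.24 FPKM to Rars2, for arginyl-tRNA synthetase, at 11.3 FPKM. In si-NC, Rars2 alone of the mitochondrial genes stood above Qars in each library. In si-circCpsf6 the number above Qars was 0, 8 and 3 in replicates 1 to 3. In bulk RNA, fewer cells with a transcript and less of it per cell cannot be told apart.

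**Figure D1:**
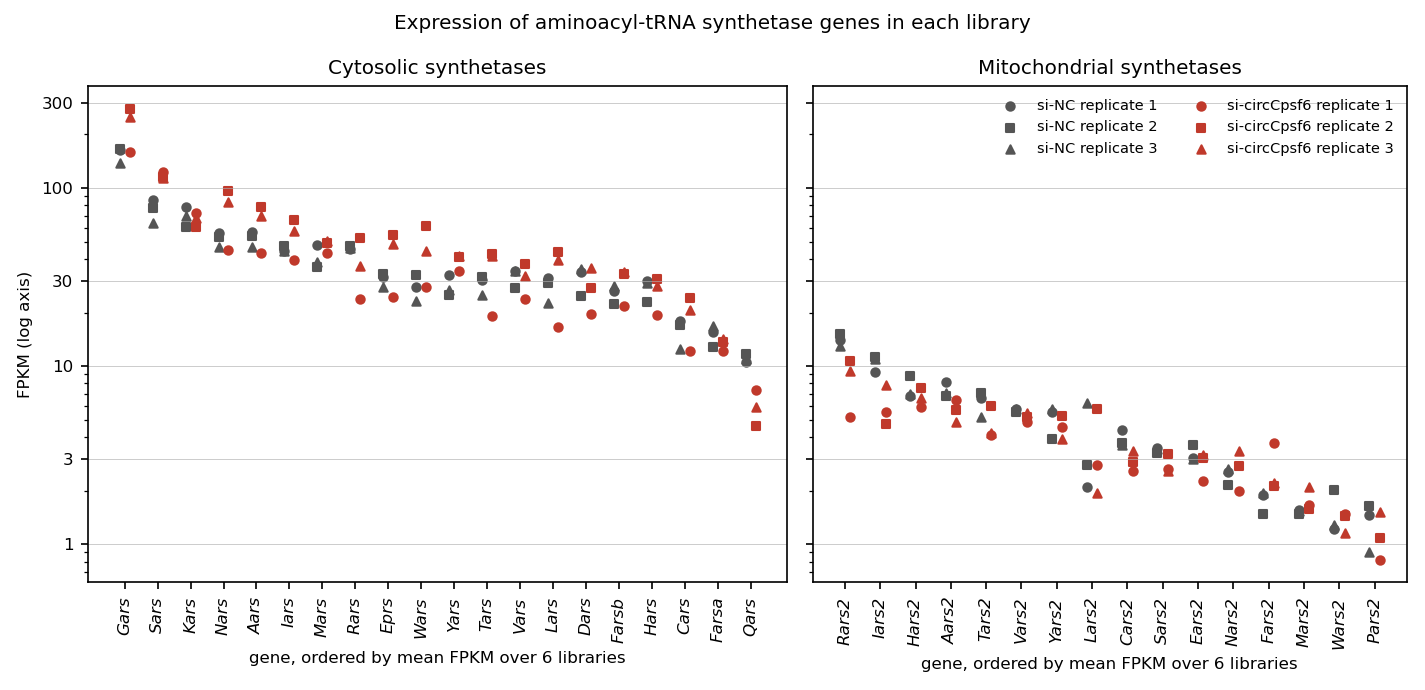
FPKM (log axis) of the 20 cytosolic and 16 of the 17 mitochondrial synthetase genes, ordered by mean; each point is 1 library, grey for si-NC and red for si-circCpsf6. Gars leads with a mean of 193 FPKM, and Qars is the lowest cytosolic gene with a mean of 8.52 FPKM. The means of the mitochondrial genes lie between 1.24 and 11.3 FPKM.

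Setting si-circCpsf6 against si-NC asks whether the synthetase genes responded to silencing of the circle, and whether the 2 sets did so alike. By their median fitted changes the sets leaned in opposite directions, and no single gene passed the test. The lean was not seen in every library. In si-circCpsf6 replicate 1 the median log2(FPKM + 1) difference from the si-NC mean was -0.27 for the cytosolic and -0.26 for the mitochondrial genes. With limma on log2(FPKM + 1), 0 of the 37 genes had an adjusted p under 0.05, where 1.69% of the 12974 tested genes did (0.902% higher and 0.786% lower). At an unadjusted p under 0.05 there were 5: Sars and Yars higher (10.2% of tested genes) and Qars, Iars2 and Rars2 lower (10.1%). That number was 16 without si-circCpsf6 replicate 1 and 3 without si-NC replicate 2. The share of all tested genes at that threshold was not computed with a library left out, so these numbers have no background beside them. The authors' deposited table gives q-values under 0.05 for 3 of the 37, Qars (log2 fold change -0.89, q 0.01), Iars2 (-0.80, q 0.02) and Sars (0.64, q 0.04). In the authors' deposited table, q-values under 0.05 went to 3.22% of the tested genes with a higher value and to 2.29% with a lower value.

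Fitted log2 fold changes were above 0 in 13 of 20 cytosolic genes (median 0.198) and in 3 of 17 mitochondrial genes (median -0.149). Over all tested genes 47.2% were above 0 and the median was -0.021. The cytosolic median depended on the library. It was 0.463 without si-circCpsf6 replicate 1, 0.047 without its replicate 2, 0.104 without its replicate 3, and 0.116 when si-NC replicate 3 was left out. The mitochondrial median was -0.084 without si-circCpsf6 replicate 1 and -0.227 when its replicate 2 was left out, and stayed below 0 with any 1 library left out. Every fitted change of the 37 genes was smaller than 1 on the log2 scale, that is, under 2-fold on the log2(FPKM + 1) scale; for the low mitochondrial genes that scale makes changes look smaller.

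**Figure D2:**
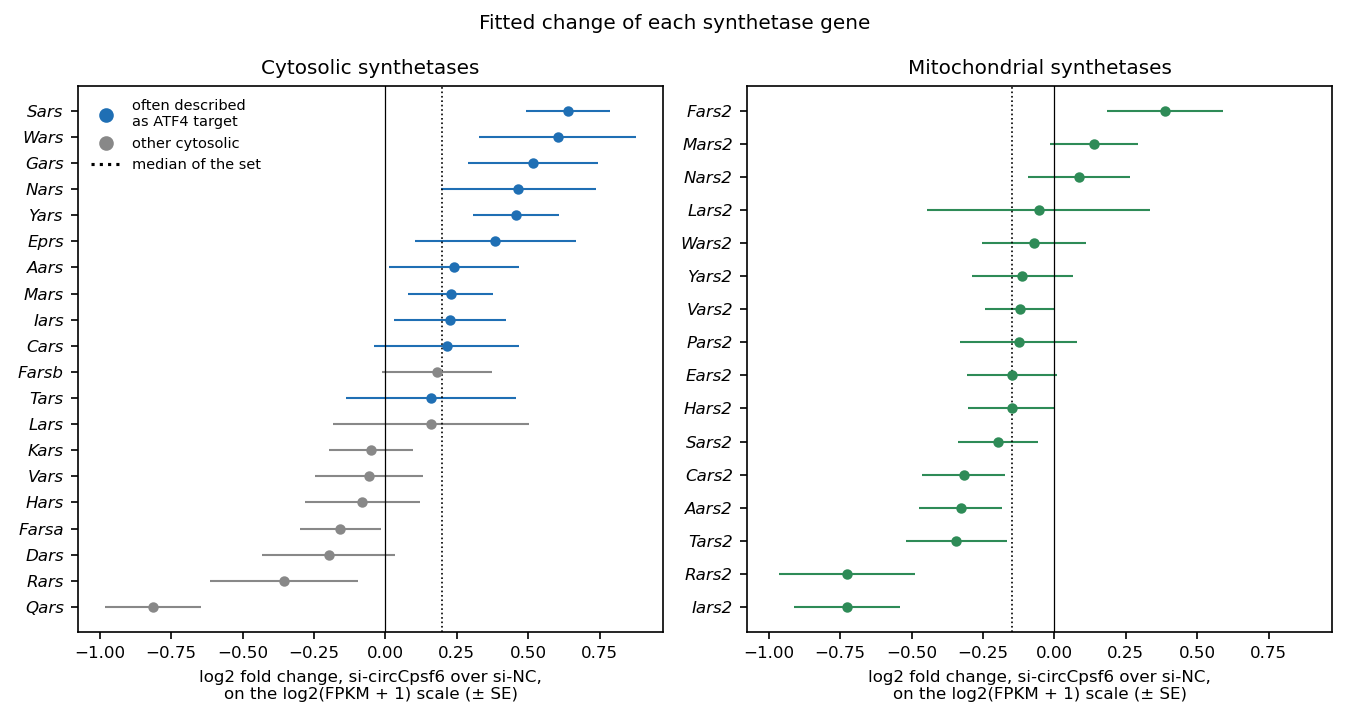
Log2 fold change of the 20 cytosolic and 16 of the 17 mitochondrial synthetase genes, si-circCpsf6 over si-NC on the log2(FPKM + 1) scale, with the standard error from limma; blue points are cytosolic genes often described as ATF4 targets, grey points other cytosolic genes, green points mitochondrial genes, and the dotted line is the median of the whole set. Values run from -0.81 for Qars to 0.64 for Sars, with medians of 0.198 and -0.149.

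The opposite lean was clearest in the summed FPKM of each set. Summed cytosolic FPKM was 900, 830.8 and 786.1 in si-NC replicates 1 to 3 and 787.7, 1213 and 1116 in si-circCpsf6. Replicates 2 and 3 of si-circCpsf6 thus stood above all of si-NC, while replicate 1 lay inside its range. Summed mitochondrial FPKM was 81.53, 83.6 and 82.75 in si-NC and 57.9, 71.83 and 66.97 in si-circCpsf6, where all 3 libraries were lower. The mean sum went from 82.63 to 65.57 FPKM. Rars2, from a mean of 14.1 to 8.44 FPKM, and Iars2, from 10.5 to 6.04 FPKM, made up a large part of that fall. The sum without them was not computed. The ratio of the sums, cytosolic over mitochondrial, was 11.04, 9.938 and 9.499 in si-NC (mean 10.2 ± 0.793 SD, n = 3) and 13.6, 16.88 and 16.67 in si-circCpsf6 (15.7 ± 1.83, n = 3). These groups did not overlap, and the mean ratio was 1.55 times as high in si-circCpsf6. That factor was 1.48 without Gars and between 1.49 and 1.65 with any 1 library left out. It was 1.33 for the ratio of the median genes, and there replicate 1 of si-circCpsf6 (8.64) lay below the si-NC range of 8.76 to 8.97. The members were chosen with earlier results in view, so these ratios are given with no test.

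**Figure D3:**
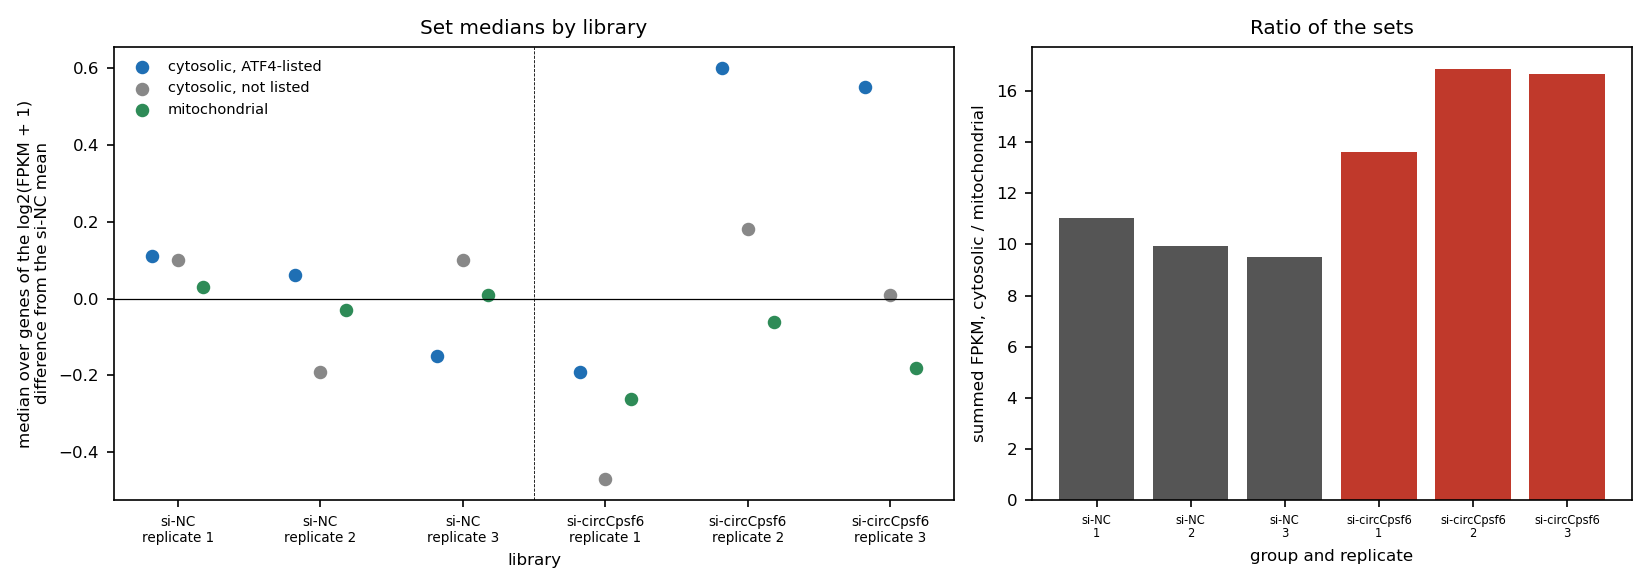
Left, the median over genes of the log2(FPKM + 1) difference from the si-NC mean in each library, for cytosolic genes often described as ATF4 targets (blue), other cytosolic genes (grey) and mitochondrial genes (green); right, the summed cytosolic over the summed mitochondrial FPKM per library. The blue points reach 0.60 and 0.55 in si-circCpsf6 replicates 2 and 3 and lie at -0.19 in replicate 1, while the ratio on the right is 13.6 to 16.88 in si-circCpsf6 and 9.499 to 11.04 in si-NC.

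Among cytosolic genes with higher values, Sars and Yars were the pair in which every si-circCpsf6 library lay above every si-NC library (2 of 20, or 10.0%, against 12.8% of tested genes). Sars encodes seryl-tRNA synthetase (ENSMUSG00000068739, chr3:108424865-108445209, GRCm38, minus strand). It read 85.81, 76.85 and 64.03 FPKM in si-NC and 123.68, 115.35 and 113.15 FPKM in si-circCpsf6. The groups were well apart and replicate 1 was here the highest of its group. The log2 fold change was 0.64 ± 0.15 (SE; limma adjusted p = 0.0757). Yars encodes tyrosyl-tRNA synthetase (ENSMUSG00000028811, chr4:129189760-129219607, plus strand). Its values were 32.69, 24.95 and 26.81 FPKM in si-NC and 34.15, 41.04 and 41.43 FPKM in si-circCpsf6, with replicate 1 just above the highest si-NC library. The log2 fold change was 0.46 ± 0.15 (SE; limma adjusted p = 0.155). Yars overlaps C77080 on the opposite strand (log2 fold change 0.32), so reads of the 2 could be mixed where strand was not used.

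A larger group was high in si-circCpsf6 replicates 2 and 3 alone. Gars (ENSMUSG00000029777, chr6:55038007-55079500, plus strand) read 163.8, 166.59 and 138.07 FPKM in si-NC and 158.67, 279.35 and 250.75 FPKM in si-circCpsf6. Replicate 1 sat inside the si-NC range and the others stood far above it (log2 fold change 0.52 ± 0.23, SE; limma adjusted p = 0.256). Wars, for tryptophanyl-tRNA synthetase (ENSMUSG00000021266, chr12:108860030-108894174, minus strand), read 27.8, 32.5 and 23.34 FPKM against 27.94, 61.41 and 44.51 FPKM. Among the cytosolic genes above 0 it had the largest fitted difference after Sars, 0.60 ± 0.28 (SE; limma adjusted p = 0.273), and the widest relative spread of the cytosolic genes. Wars overlaps Wdr25 on the opposite strand (mean 2.38 FPKM, log2 fold change 0.05). Nars, for asparaginyl-tRNA synthetase, read 55.74, 52.92 and 46.46 FPKM against 45.12, 96.27 and 83.98 FPKM. In Nars, replicate 1 lay below all of si-NC (log2 fold change 0.46 ± 0.27, SE; limma adjusted p = 0.389). Eprs, whose single protein charges both glutamate and proline tRNA, had the same shape. It read 31.62, 32.84 and 27.71 FPKM in si-NC against 24.57, 54.5 and 48.66 FPKM (log2 fold change 0.38 ± 0.28, SE; limma adjusted p = 0.492). Without si-circCpsf6 replicate 1 the log2 fold changes of Gars, Wars, Nars and Eprs were 0.76, 0.90, 0.79 and 0.73, and none passed. When its replicate 2 was left out they were 0.36, 0.34, 0.25 and 0.17.

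Iars, for isoleucyl-tRNA synthetase, read 44.35, 47.41 and 44.34 FPKM in si-NC and 39.41, 66.49 and 57.59 FPKM in si-circCpsf6 (log2 fold change 0.23 ± 0.20, SE; limma adjusted p = 0.56). Leaving out si-circCpsf6 replicate 1 gave 0.44 for Iars, and leaving out its replicate 2 gave 0.07. Mars, for methionyl-tRNA synthetase, read 47.69, 35.96 and 38.31 FPKM and 43.14, 49.04 and 50.56 FPKM (log2 fold change 0.23 ± 0.15, SE; limma adjusted p = 0.438), and 0.15 when si-NC replicate 2 was left out. In both, replicate 1 overlapped si-NC or lay below it. Mars overlaps Ddit3, the gene of the stress regulator CHOP, on the opposite strand, and Ddit3 read 30.9 ± 10.2 FPKM in the controls against 67.3 ± 11.5 FPKM (SD, n = 3; limma adjusted p = 0.0757). How strand was handled is not given in these sources, so the value of Mars may hold reads of Ddit3. Aars (0.24), Cars (0.21), Farsb (0.18), Tars (0.16) and Lars (0.16), for alanine, cysteine, the beta subunit for phenylalanine, threonine and leucine, had log2 fold changes above 0 with overlapping groups. In each of these 5, si-circCpsf6 replicate 1 was the lowest of the 6 libraries. Farsb overlaps Sgpp2 on the opposite strand, which had a log2 fold change of 1.42.

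Qars had the lowest fitted log2 fold change of the 7 cytosolic genes below 0. Qars (ENSMUSG00000032604, chr9:108507706-108515941, GRCm38, plus strand) read 10.52, 11.7 and 10.99 FPKM in si-NC and 7.37, 4.59 and 5.92 FPKM in si-circCpsf6. All 3 si-circCpsf6 values lay below all si-NC values, the sole such case among the 20 cytosolic genes (14.0% of tested genes). The means were 11.1 ± 0.594 and 5.96 ± 1.39 FPKM (SD, n = 3), and the log2 fold change was -0.81 ± 0.17 (SE; limma adjusted p = 0.06). Among protein-coding genes alone it passed (limma adjusted p = 0.0397). No other annotated gene overlaps it. Rars, for arginyl-tRNA synthetase, read 45.44, 47.02 and 46.12 FPKM in si-NC and 23.83, 52.68 and 36.68 FPKM in si-circCpsf6. The si-circCpsf6 libraries lay on both sides of si-NC (log2 fold change -0.36 ± 0.26, SE; limma adjusted p = 0.491), and leaving out replicate 1 gave -0.07 and leaving out replicate 2 gave -0.63. The other cytosolic genes below 0 were Dars (-0.20), Farsa (-0.16), Hars (-0.08), Vars (-0.06) and Kars (-0.05), for aspartate, the alpha subunit for phenylalanine, histidine, valine and lysine. Their groups overlapped, and Kars was the steadiest of the cytosolic genes, between 60.39 and 78.63 FPKM over all libraries. Farsa and Farsb, the paired subunits of a single enzyme, had fitted changes of opposite sign that were each about the size of their standard errors (0.14 and 0.19).

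In the mitochondrial set, 14 of 17 genes had a lower fitted level, and in 6 of them every si-circCpsf6 library lay below every si-NC library (35.3%, against 14.0% of tested genes). These were Iars2, Rars2, Aars2, Cars2, Sars2 and Vars2. Iars2, for isoleucyl-tRNA synthetase (ENSMUSG00000026618, chr1:185284726-185329396, GRCm38, minus strand), read 9.23, 11.29 and 10.93 FPKM in si-NC and 5.53, 4.72 and 7.87 FPKM in si-circCpsf6. The highest si-circCpsf6 value thus lay below the lowest si-NC value. The log2 fold change was -0.73 ± 0.19 (SE; limma adjusted p = 0.094). Iars2 overlaps Rab3gap2 on the opposite strand, whose log2 fold change was -0.03. Rars2 (ENSMUSG00000028292, chr4:34614957-34660167, plus strand), the mitochondrial gene with the highest mean, read 14.07, 15.19 and 12.99 FPKM and 5.19, 10.73 and 9.4 FPKM. Replicate 1 was the lowest, and the other si-circCpsf6 libraries were also below si-NC (log2 fold change -0.73 ± 0.24, SE; limma adjusted p = 0.153), with -0.45 when replicate 1 was left out.

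Smaller shifts of the same sign followed. Aars2, for alanyl-tRNA synthetase, read 8.17, 6.84 and 7.02 FPKM and 6.46, 5.67 and 4.86 FPKM (log2 fold change -0.33 ± 0.15, SE; limma adjusted p = 0.261). Cars2, for cysteinyl-tRNA synthetase, read 4.37, 3.7 and 3.63 FPKM and 2.59, 2.89 and 3.32 FPKM (-0.32 ± 0.15, SE; limma adjusted p = 0.272). In both genes the groups were narrowly apart. Cars2 overlaps Naxd on the opposite strand (mean 9.06 FPKM, log2 fold change -0.08), so reads of the 2 could be mixed where strand was not used. Tars2, for threonyl-tRNA synthetase, read 6.65, 7.04 and 5.18 FPKM and 4.11, 5.95 and 4.24 FPKM, with an overlap (-0.34 ± 0.18, SE; limma adjusted p = 0.331). Sars2 and Vars2, for serine and valine, were only just apart (log2 fold changes -0.20 and -0.12), and at such low values the counting error is not known. Vars2 varied the least of all 37 genes, with 5.7 ± 0.127 and 5.16 ± 0.301 FPKM (SD, n = 3). Ears2 (-0.15), Hars2 (-0.15), Pars2 (-0.13), Yars2 (-0.11), Wars2 (-0.07) and Lars2 (-0.06), for glutamate, histidine, proline, tyrosine, tryptophan and leucine, were below 0 with overlapping groups. Hars2 overlaps the cytosolic gene Hars on the opposite strand, so their reads could be mixed too.

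Fars2, for the mitochondrial phenylalanyl-tRNA synthetase, went the other way. It read 1.9, 1.47 and 1.93 FPKM in si-NC and 3.7, 2.12 and 2.2 FPKM in si-circCpsf6, with all 3 above si-NC (log2 fold change 0.39 ± 0.20, SE; limma adjusted p = 0.335), and leaving out replicate 1 gave 0.20. Its span holds Nrn1 on the opposite strand, with a mean of 36.45 FPKM and a log2 fold change of -1.13. Mars2, for methionine, was also just apart, at 1.55, 1.47 and 1.53 FPKM against 1.66, 1.58 and 2.1 FPKM. Nars2, for asparagine, had a log2 fold change of 0.09. Fars2 and Mars2 are 2 of 17 genes (11.8%, against 12.8% of tested genes), and counted in either direction the groups did not overlap in 8 of 17 mitochondrial and 3 of 20 cytosolic genes, against 26.9% of tested genes.

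Within single amino acids the contrast was read in 14 pairs that have 1 cytosolic and 1 mitochondrial gene. The cytosolic gene had the higher FPKM in all 14 pairs in every library. The fitted log2 fold change of the cytosolic gene minus that of its mitochondrial partner was above 0 in 14 of 14, from 0.06 for valine to 0.95 for isoleucine, with a median of 0.44. The log2(FPKM + 1) scale shrinks the change of the gene with lower FPKM more, so small differences can come from the scale. For methionine the ratio of mean FPKM, si-circCpsf6 over si-NC, was 1.17 for both Mars and Mars2. For serine the ratio of Sars to Sars2 was 24.9, 23.7 and 18.7 in si-NC and 46.7, 35.7 and 43.9 in si-circCpsf6. For isoleucine the ratio of Iars to Iars2 was 4.8, 4.2 and 4.06 in si-NC and 7.13, 14.1 and 7.32 in si-circCpsf6. In these 2 pairs, and in those for cysteine, arginine and tyrosine, every si-circCpsf6 ratio lay above every si-NC ratio, while no pair lay wholly below. How often the ratios of other gene pairs lie apart was not computed, so 5 of 14 has no background beside it. The ratio for arginine rested on the mitochondrial gene, because both genes of that pair had fitted changes below 0. The pairs share their libraries and are not independent, so their number is a description. In those 5 pairs replicate 1 of si-circCpsf6 was above si-NC as well, although it held the lowest cytosolic value of its group in most genes.

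**Figure D4:**
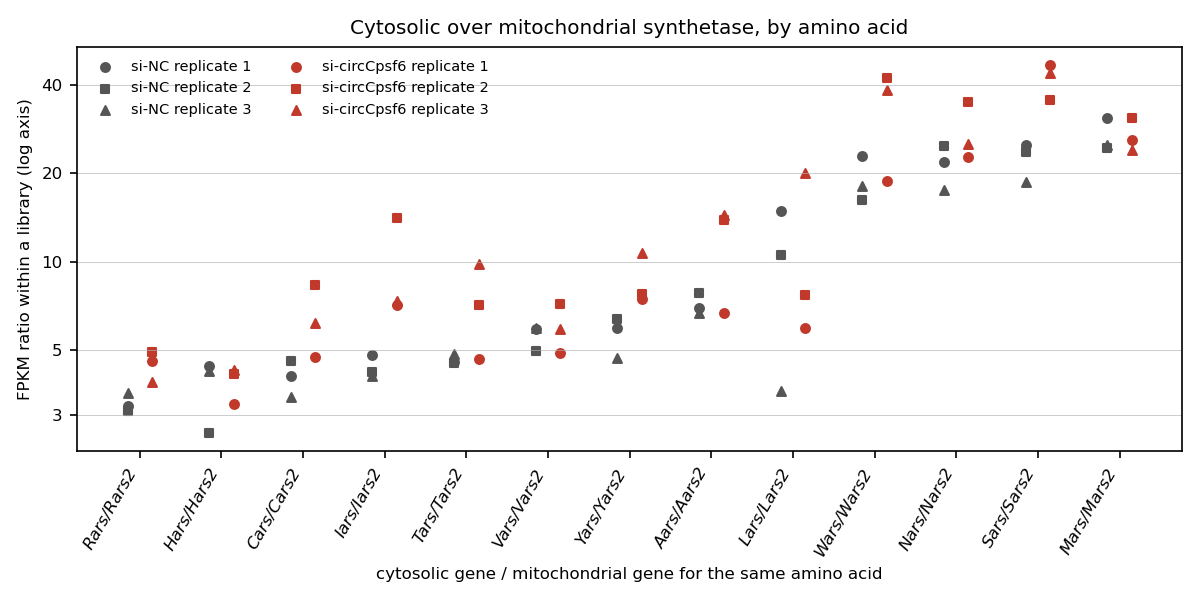
FPKM of the cytosolic gene divided by FPKM of the mitochondrial gene for the same amino acid within each library (log axis), for 13 of the 14 pairs; grey points are si-NC libraries and red points si-circCpsf6 libraries. Sars over Sars2 lies at 18.7 to 24.9 in si-NC and at 35.7 to 46.7 in si-circCpsf6, while Hars over Hars2 and Mars over Mars2 overlap.

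A list of 11 cytosolic synthetase genes commonly described as ATF4 targets (Aars, Cars, Eprs, Gars, Iars, Mars, Nars, Sars, Tars, Wars and Yars) was set beside the other cytosolic genes. All 11 had fitted log2 fold changes above 0, with a median of 0.38, against 2 of the other 9 cytosolic genes (Farsb and Lars), with a median of -0.08. None of either group passed the test. The list was chosen with earlier results of these data known, so this split is a description and not independent support for a role of ATF4. Of the 11, 10 were above 0 without si-circCpsf6 replicate 2 (median 0.21) and also without si-circCpsf6 replicate 3 (0.25), and 11 with any other library left out. Of the other 9, 5 were above 0 without si-circCpsf6 replicate 1 and 1 when its replicate 3 was left out. By library, all 11 stood above their si-NC means in si-circCpsf6 replicates 2 and 3, and 5 did in replicate 1. In that replicate 1 of the other 9 and 3 of the 17 mitochondrial genes stood above. The list varied within the controls too, since 0 of 11 were above those means in si-NC replicate 3 and 10 in si-NC replicate 1.

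ATF4 binds with C/EBP partners to a composite site, and its core, TGATGNAA, was searched on both strands in RefSeq promoter windows (GRCm38.p6) of 300 bases, from 250 bases before each start site to 50 bases from it. The end of the motif can also be part of plain C/EBP sites. Windows were found for 12 cytosolic and 14 mitochondrial genes. The motif stood in 5 of 12 cytosolic genes (41.7%) and in 0 of 14 mitochondrial genes, and all 5 were among the 7 genes of the list above that had a window. Over all 27025 genes with a window 4.51% held it, and over the 8860 of them that were tested 2.63% did. A match is not evidence of binding, and no match says only that these letters are absent from the window. A window around a match is printed for each of the 5 genes because the motif was found in part of the listed genes and in no mitochondrial gene with a window. Capitals mark the motif, and each line reads 5′ to 3′ on the strand that carries it. The match of Aars that is shown (chr8:111033840-111033869) was on the minus strand while the gene is on the plus strand. Those of Gars (chr6:55037960-55037989) and Iars (chr13:49682126-49682155) were likewise on the minus strand of plus-strand genes. Tars (chr15:11399655-11399684) carried it on the plus strand, opposite to its own, and Yars (chr4:129189895-129189924) on its own plus strand.
Aars: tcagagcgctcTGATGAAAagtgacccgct
Gars: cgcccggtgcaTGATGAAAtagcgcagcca
Iars: gcgtctggaggTGATGCAAtactgacagtg
Tars: agctaaccagcTGATGCAAcgggactcctg
Yars: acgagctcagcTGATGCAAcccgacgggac
The start of the motif on the gene's strand lay at 9 for Aars, -30 for Gars, 7 for Iars, -15 for Tars and 3 for Yars, counted from the start site as 0. Sars and Eprs, which had windows with no match, had log2 fold changes of 0.64 and 0.38, and Tars, with a match, had 0.16.

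The cytosolic genes were also counted by membership of the multisynthetase complex. Of its 8 synthetase genes (Dars, Eprs, Iars, Kars, Lars, Mars, Qars and Rars) 4 were above 0 and 4 below, with a median of 0.055, against 9 of 12 above 0 outside it. Without si-circCpsf6 replicate 1 these were 5 of 8 (median 0.16) and 11 of 12, and when its replicate 3 was left out 3 of 8 (median -0.04) and 8 of 12. The difference between these groups was not tested. Its scaffold genes, which hold the enzymes together and charge no tRNA, did not pass the test: Aimp1 read 10.7 ± 1.59 and 13.6 ± 3.67 FPKM in the control and silenced libraries, and Aimp2 read 25.6 ± 4.4 and 20.2 ± 3.67 FPKM (SD, n = 3). By catalytic fold, 6 of 9 class I genes and 6 of 10 class II genes were above 0, with Eprs, which joins both folds, left out.

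The heptamer GCAGAAT was picked earlier from these same libraries, so its counts here are a description. It was absent from the longest annotated 3' untranslated region (GENCODE M21) of all 20 cytosolic genes, Qars included. It stood in 3 of 17 mitochondrial genes (17.6%), against 10.2% of 10630 tested genes that could be searched. The 3 carriers were Iars2, Sars2 and Lars2, and Rars2 did not carry it. Their regions differ in length from the cytosolic ones, with a median of 986 bases against 303 bases. The 3 sites are printed, with the heptamer in capitals, to show that it sits in unlike surroundings in each gene, at base 307 of the region in Iars2, base 247 in Sars2 and base 367 in Lars2.
Iars2: ctttcaatgtgGCAGAATgttttatatttt
Sars2: ctcagtgcggaGCAGAATggccacaataaa
Lars2: atcattgtgaaGCAGAATtcaccaagcgtt
In none of the 3 was the heptamer followed by A. Their log2 fold changes were -0.73, -0.20 and -0.06.

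Other genes of tRNA charging were read from lists. Of the 19 tested genes of the integrated stress response list 14 were above 0 (median 0.236), and 1 passed, where 0.902% of all tested genes passed with a higher value. Phgdh, a serine synthesis enzyme, rose from 49.5 ± 11.6 to 143 ± 39.2 FPKM (SD, n = 3; limma adjusted p = 0.0414). Atf4 itself read 185 ± 84.7 and 298 ± 102 FPKM and Asns, the asparagine synthetase gene, 134 ± 32.6 and 216 ± 37.8 FPKM (limma adjusted p = 0.335 and 0.144). The median difference of that list from the si-NC mean was 0.02, 0.66 and 0.33 in si-circCpsf6 replicates 1 to 3, so replicate 1 was the lowest here as it was for the cytosolic synthetases. Eif2ak4, which encodes GCN2, read 7.04 ± 0.94 and 8.46 ± 1.01 FPKM and did not pass (limma adjusted p = 0.426).

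Further lists covered delivery, proofreading and maturation of tRNA. Of the 5 elongation factor 1 genes, which bring charged tRNA to the cytosolic ribosome, 1 was above 0 and the median was -0.01. Eef1d, which encodes an exchange factor subunit, read 19.7 ± 1.53 and 17.7 ± 2.02 FPKM (limma adjusted p = 0.594). All 4 proofreading deacylase genes were below 0 (median -0.251), and Dtd1, which removes D-amino acids from tRNA, read 5.81 ± 0.81 and 3.97 ± 0.742 FPKM (limma adjusted p = 0.179). In the list of tRNA maturation and export 3 of 7 were above 0 (median -0.149), and Elac1, a tRNA 3' end nuclease gene, read 3.23 ± 0.659 and 1.62 ± 0.95 FPKM (limma adjusted p = 0.217). Tarsl2, a threonyl-tRNA synthetase-like gene outside the name rule, read 6.05 ± 0.658 and 6.27 ± 1.39 FPKM (limma adjusted p = 0.941). No gene named in these sentences passed, nor did any other gene of their lists.

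On the mitochondrial side, the subunits of the amidotransferase that makes glutaminyl-tRNA (Qrsl1, Gatb and Gatc) and the formyltransferase gene Mtfmt were all below 0, with a median of -0.127. Gatc read 30.7 ± 1.88 and 24.9 ± 3.26 FPKM and had the smallest adjusted p of the 4 (limma, 0.282). Of 6 mitochondrial initiation and elongation factor genes 3 were above 0 (median -0.038). Gfm2, for a ribosome recycling factor, was the one with groups apart, at 8.39 ± 0.802 and 10.5 ± 0.485 FPKM (limma adjusted p = 0.247). That is 1 of 6, where 12.8% of tested genes were apart and higher and 26.9% were apart in either direction. A further list held 78 genes picked by mitochondrial ribosomal protein names alone (Mrpl or Mrps and a number). Of these 46 were below 0 (median -0.039) and 1 passed, Mrps36, which fell, where 0.786% of all tested genes passed with a lower value. The name does not show that a product, that of Mrps36 included, is part of the ribosome.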

How the data were processed

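RNA of 6 Neuro2A libraries (3 si-NC, 3 si-circCpsf6) was measured. The deposited table holds FPKM per gene and library, which the authors computed from their reads, with group fold values, log2 fold changes and p-values and q-values that the authors deposited beside them. The linear ratio (fold change) column that the authors deposited was not used, and their log2 fold changes and q-values are printed for 3 genes. Bowtie 0.12.2 is named per the submitters' processing notes, and the role of the builds named there, the counting and the strand are not stated in the labels or headers. The labels' protocols name a small RNA kit for these mRNA libraries.

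Low FPKM values did not resolve into whole reads, so counts were not recovered and the depth per library is unknown. Genes whose mean reached 1 FPKM were kept, values were taken as log2(FPKM + 1), and groups were compared with limma 3.58.1 in R 4.3.3, with an intensity trend and Benjamini-Hochberg adjustment over all 12974 genes (threshold 0.05). The procedure was tested on simulated data with 200 of 12974 genes changed on the log2(FPKM + 1) scale. It recovered 60% of 2-fold and 83% of 4-fold changes, with 4 false calls. Fold changes are si-circCpsf6 over si-NC. No sample or value column was left out.

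The members and gene lists were chosen with earlier results of these data known. All 37 genes could be named. Full values were given for those past the test, or otherwise for the 10 cytosolic and 6 mitochondrial genes with the smallest unadjusted p, and for genes at the extremes of level. From other lists, genes past the test (up to 4) or up to 2 with the smallest p were named, with some of the neighbours that overlap a member. Mars2, Sars2, Vars2, Atf4, Asns, Eif2ak4, Aimp2 and Mycn were named after their values were seen. Promoters came from RefSeq (GRCm38.p6) and positions and 3' untranslated regions from GENCODE M21 (GRCm38). Normalization, pseudocount, filter, trend, gene class, a replicate block, each library and the authors' q-values were varied. A few items are not reported here.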

Additional observations from a re-analysis of the deposited data

How the results depend on the processing

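The 16 synthetase genes given with full tests kept the sign of their fold change in each alternative that could be run for them. Others did not: 13 cytosolic genes were above 0 with all libraries and 11 to 16 with 1 library left out. Of the 37 genes 0 passed, except in 2 settings. Among protein-coding genes alone 1 passed, Qars, which was 1 cytosolic gene lower (limma adjusted p = 0.0397). By q-values taken from the authors' deposited table, 3 passed: 1 cytosolic gene higher, 1 cytosolic gene lower and 1 mitochondrial gene lower. The mitochondrial median log2 fold change was -0.336 with a mean of at least 5 FPKM, which left 6 of its genes, and -0.227 to -0.084 with 1 library left out. The cytosolic median was 0.047 to 0.463 and the difference of the medians 0.258 to 0.547 with 1 library left out. Calls over all genes, 219, were far less stable: 3 to 88 with 1 library left out, 13 with no filter and 437 among protein-coding genes alone. The replicate block gave 0 of the 37 genes and 11 genes in all. The replicate numbers were not taken as pairs in the main test. Same-numbered libraries correlated at 0.103, 0.129 and 0.084 in their deviations from the group means. Each si-circCpsf6 library correlated best with its own number, which is a hint from the data only. Ratios without Gars or by median genes were chosen after seeing the data. The unknown depth limits the lowest genes, such as Pars2 and Wars2.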

Other observations

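Lars2, for the mitochondrial leucyl-tRNA synthetase, was the most variable of the 37 genes, with a coefficient of variation of 52.2% over the 6 libraries. It read 2.09, 2.79 and 6.21 FPKM in si-NC and 2.8, 5.71 and 1.95 FPKM in si-circCpsf6, so each group held high and low libraries. The ribosomal RNA related loci Gm26917 and AY036118 were looked at after these values were seen. Gm26917 read 58.69, 83.86 and 159.75 FPKM in si-NC and 89.95, 95.8 and 80.46 FPKM in si-circCpsf6. AY036118 read 4444.01, 5219.93 and 6621.24 FPKM in si-NC and 6518.29, 4305.1 and 3615.49 FPKM in si-circCpsf6. Replicate 3 of si-NC was the highest library for all 3 genes, and their part in the value of Lars2 was not tested.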
